A study of Brassica napus with 22 samples.

Results

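The peripheral endosperm lines the wall of the developing seed cavity, between the micropylar endosperm that surrounds the embryo and the chalazal endosperm that faces the maternal supply tissue. Its transcriptome in globular-stage seeds of oilseed rape (Brassica napus cultivar Topas, a crop species that carries an A and a C subgenome) is set here against the mean of 6 other compartments of the same seeds. Those are 3 further filial tissues (embryo proper, micropylar endosperm, chalazal endosperm) and 3 maternal ones (chalazal proliferating tissue, outer seed coat, inner seed coat). The labels list 2 of the 22 libraries for the peripheral endosperm, 4 for the micropylar endosperm, 2 each for embryo proper and outer seed coat, and 3 each for chalazal endosperm, chalazal proliferating tissue, inner seed coat and whole seed. All come from untreated plants of 1 cultivar, so genotype and treatment do not differ between the groups. The values are 1 combined FPKM column per group (fragments relative to transcript length and library size, rounded to whole numbers), so there is no spread between replicates and no difference below has a test. How many seeds and plants stand behind a column, and whether the libraries came from separate plants, is not given in the sources used here.

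In Brassicaceae seeds the endosperm starts as a syncytium whose nuclei divide without cytokinesis, and it forms cell walls later, beginning near the embryo. In Arabidopsis the type I MADS box protein AGL62 holds this cellularisation back, and a Polycomb complex of endosperm-specific subunits (MEA, FIS2) with FIE and MSI1 acts against the genes that do so. The seeds of oilseed rape are green, and plastids of the embryo and the seed coat are known to photosynthesise inside them.

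The members were all genes of the deposited table with values for the compartments: 100447 genes, of which 54278 reached 1 FPKM in 2 or more of the 8 columns and were compared. The difference of a gene is its log2(FPKM + 1) in the peripheral endosperm minus the mean of its log2(FPKM + 1) in the 6 other compartments, so each compartment counts equally. Genes were counted higher or lower where this difference was at least 1 log2 unit and the higher side reached 5 FPKM. The rule is one of size and carries no error rate. It counted 7423 genes higher (13.7% of those compared) and 6205 lower (11.4%), around a median difference of -0.06 log2 over all compared genes. The balance depends on scaling: with all columns brought to a common median of detected genes, which moves the median of all genes by 0.34 log2, 11364 genes counted higher and 4908 lower, and with a common sum over genes other than rRNA and organelle genes, which moves it by -0.16 log2, 5890 counted higher and 7832 lower. A stricter group of 1539 genes (2.84%) reached 5 FPKM in the peripheral endosperm and lay at least 1 log2 unit above each of the 6 other compartments. The peripheral endosperm was the single highest compartment for 5230 genes (9.64%) and the single lowest for 1393 genes (2.57%).

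**Figure D1:**
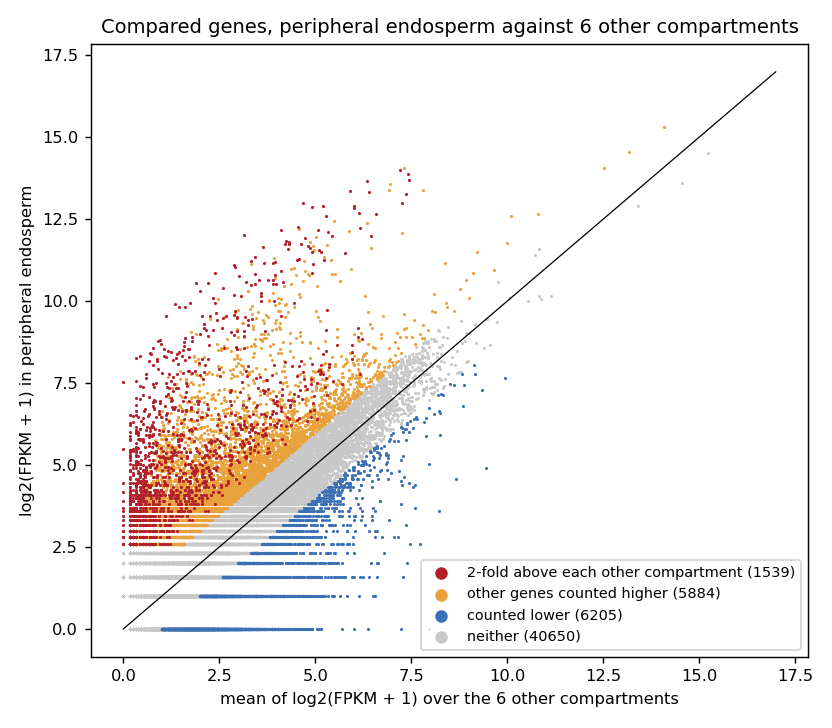
Level of each of the 54278 compared genes in the peripheral endosperm, as log2(FPKM + 1), against its mean log2(FPKM + 1) over the 6 other compartments; points are genes, coloured by the rule of size. The 1539 genes of the stricter group run through the 7423 genes counted higher, with differences of 1.35 to 8.87 log2.

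The label was checked against marker genes of the tissues a section could hold. Genes known from Arabidopsis to mark endosperm summed to 1871 FPKM in the peripheral endosperm, against 13, 772, 1742, 2, 29 and 6 FPKM in the embryo proper, micropylar endosperm, chalazal endosperm, chalazal proliferating tissue, inner seed coat and outer seed coat. All 3 endosperm regions were therefore high and the other 4 compartments low. Embryo markers summed to 6 FPKM in the peripheral endosperm, with 22 of the 28 compared copies listed at 0, against 630 FPKM in the embryo proper. Seed coat markers summed to 196 FPKM, with 39 of 73 copies at 0, against 1518 to 2393 FPKM in the 3 maternal compartments, 292 FPKM in the micropylar endosperm, 200 FPKM in the chalazal endosperm and 71 FPKM in the embryo proper. IPT8, a cytokinin synthesis gene used as a chalazal marker, summed to 5 FPKM over its 3 compared copies in the peripheral endosperm and to 346 FPKM in the chalazal endosperm. In bulk tissue fewer cells of a type and less RNA per cell cannot be told apart, and this holds for every level below.

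The peripheral endosperm column detected 42784 genes at 1 FPKM or more and 21194 at 5 FPKM or more. Its values summed to 1376626 FPKM over all genes, within the range of 760254 to 2283005 FPKM of the 6 other compartments. Genes matching rRNA or organelle genomes took 11.1% of this sum and 36.9% in the micropylar endosperm. Summed FPKM of gene lists and loci below are not scaled for these column totals or shares, so close sums give no order between columns. Copies of a gene that are close in sequence can share reads, and how the authors counted such reads is not given in the sources used here, so values of single copies are less certain than sums over copies. Genes that every cell uses also have copies listed at 0 (the elongation factor EF1A copy BnaA10g23810D had 0 FPKM in the peripheral endosperm and 1 to 42 FPKM in the 6 other compartments), so a listed 0 is not taken as absence. Among 55 compared copies of housekeeping genes, 8 counted higher and 5 lower, with a median difference of 0.15 log2. This split was 14 higher and 3 lower with a common median, and 6 higher and 8 lower with quantile normalisation, where the median was -0.24 log2.

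The genes are described in lists by known role in Arabidopsis, through the best Arabidopsis match that the authors deposited for each gene. Of the compared copies, the lists for photosynthesis and endosperm regulators had most members counted higher, and those for wall polysaccharide synthases, RNA-directed DNA methylation and DNA demethylation had more lower than higher.

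**Figure D2:**
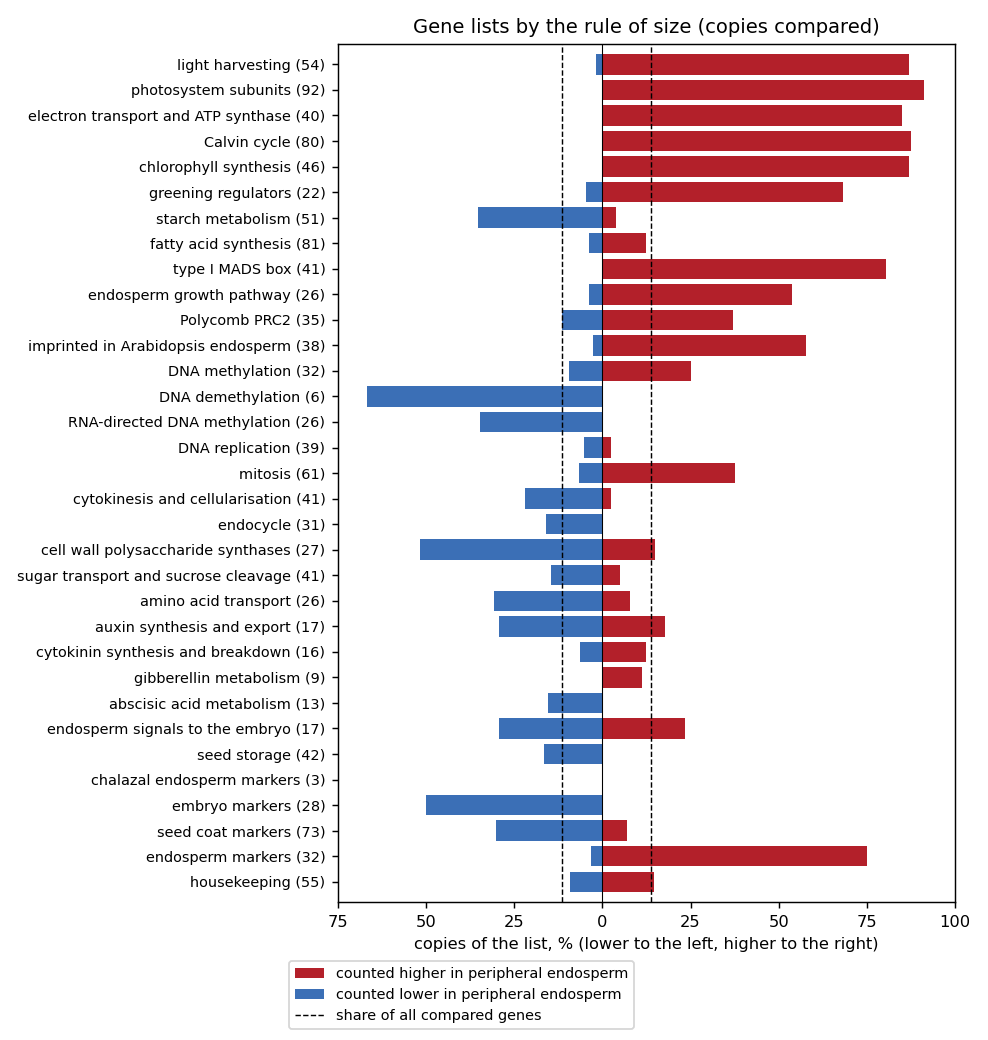
Share of the compared copies of each gene list that counted higher or lower in the peripheral endosperm than the mean of the 6 other compartments, by the rule of size (bars from 0, percent of copies, higher to the right and lower to the left; number of compared copies in brackets; dashed lines, share of all compared genes). The lists for photosystem subunits (84 of 92 copies higher), Calvin cycle (70 of 80) and type I MADS box genes (33 of 41) stand far above the 13.7% of all compared genes.

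Photosynthesis genes were higher across every list that was examined. Of the compared copies of light-harvesting genes, which encode the chlorophyll-binding antenna, 47 of 54 counted higher and 1 lower, with a median difference of 2.31 log2. Genes for photosystem subunits counted higher for 84 of 92 copies and lower for 0, with a median of 2.43 log2. For plastid electron transport and ATP synthase 34 of 40 copies counted higher and 0 lower, with a median of 2.59 log2. For the Calvin cycle, the carbon-fixing reactions, 70 of 80 copies counted higher and 0 lower, with a median of 2.68 log2. Every Arabidopsis locus in these 4 lists that had a compared copy had at least 1 copy counted higher: 12 of 12, 20 of 20, 8 of 8 and 17 of 17 loci. A further 8, 14, 6 and 11 copies of these lists did not pass the filter on low values.

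The micropylar endosperm was close in antenna genes and further away in carbon fixation. Summed over the list, light-harvesting genes had 8983 FPKM in the peripheral endosperm, against 893, 8624, 2664, 2832, 330 and 2090 FPKM in the embryo proper, micropylar endosperm, chalazal endosperm, chalazal proliferating tissue, inner seed coat and outer seed coat. In unscaled FPKM the peripheral and micropylar columns are thus nearly equal for this list. Their order is not read, since rRNA and organelle genes took 11.1% of the peripheral sum and 36.9% of the micropylar sum. The peripheral endosperm was the highest compartment for 30 of the 54 copies (20 to 40 over 3 other scalings). Photosystem subunits summed to 15402 FPKM in the peripheral endosperm, against 9245 FPKM in the micropylar endosperm, 5160 FPKM in the chalazal endosperm, 6835 FPKM in the chalazal proliferating tissue and 738 to 3331 FPKM in the other 3 compartments. Calvin cycle genes summed to 18409 FPKM in the peripheral endosperm, against 8419 FPKM in the micropylar endosperm, 3334 FPKM in the chalazal endosperm and 1058 to 1755 FPKM in the other 4 compartments. For these lists the peripheral endosperm was the highest compartment for 68 of 92 copies (60 to 80 over the scalings) and 59 of 80 copies (50 to 71).

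The Rubisco small subunit genes, whose product forms the carbon-fixing enzyme together with a plastid-encoded large subunit, had the highest levels of these lists. The 8 copies matching RBCS1B summed to 5459 FPKM in the peripheral endosperm, against 573, 3359, 873, 569, 325 and 610 FPKM in the embryo proper, micropylar endosperm, chalazal endosperm, chalazal proliferating tissue, inner seed coat and outer seed coat. The 2 copies matching RBCS1A were more restricted, with 3566 FPKM in the peripheral endosperm, against 502 FPKM in the micropylar endosperm, 448 FPKM in the chalazal endosperm and 3 to 45 FPKM in the other 4. Several of these copies lie beside each other on chromosome A02 and may share reads. The copy BnaA02g12840D (RBCS1B) had 1796 FPKM in the peripheral endosperm, against 145 FPKM in the micropylar endosperm, 337 FPKM in the chalazal endosperm and no more than 15 FPKM in the other 4, a difference of 6.85 log2 with no overlap between the sides. Whole seeds had 1 FPKM of this copy and 528 FPKM summed over the RBCS1B copies.

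Among the antenna genes, all 9 compared copies of LHCB1.3 counted higher, and they summed to 2042 FPKM in the peripheral endosperm, against 191, 2397, 343, 498, 75 and 510 FPKM in the embryo proper, micropylar endosperm, chalazal endosperm, chalazal proliferating tissue, inner seed coat and outer seed coat. The copies differed in where they were high. BnaA07g07570D, on chromosome A07 at 7849876 to 7852244, had 208 FPKM in the peripheral endosperm, against 44 FPKM in the micropylar endosperm, 53 FPKM in the chalazal endosperm and no more than 7 FPKM in the other 4, a difference of 4.48 log2. The copy of LHCB1.4 with the largest difference, BnaA05g09400D, had 191 FPKM in the peripheral endosperm, against 47 FPKM in the micropylar endosperm and 3 to 31 FPKM in the other 5, a difference of 3.87 log2.

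In the photosystem list PSBP1, a subunit of the oxygen-evolving complex, summed to 1998 FPKM over 8 copies in the peripheral endosperm, against 294, 1069, 675, 486, 72 and 318 FPKM in the embryo proper, micropylar endosperm, chalazal endosperm, chalazal proliferating tissue, inner seed coat and outer seed coat. Its copy BnaC08g44890D had 257 FPKM in the peripheral endosperm and was listed at 0 in the embryo proper and the micropylar endosperm, with 5 to 62 FPKM in the other 4, a difference of 4.76 log2. PSAG, a photosystem I subunit, had in its copy BnaC06g07480D 100 FPKM in the peripheral endosperm, against 17 FPKM in the micropylar endosperm and at most 7 FPKM in the other 5, a difference of 5.03 log2. Not every large difference set the peripheral endosperm apart. PSBR BnaC06g39450D had 220 FPKM in the peripheral endosperm but also 123 FPKM in the chalazal proliferating tissue, and a short LHCB6 gene of 114 bases, BnaC08g16770D, had 54 FPKM in the peripheral endosperm and 115 FPKM in the chalazal proliferating tissue.

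The soluble carriers also had copies 2-fold above each other compartment. Plastocyanin PETE1, which passes electrons to photosystem I, had in its copy BnaC06g36770D 84 FPKM in the peripheral endosperm, against 11 FPKM in the chalazal endosperm and no more than 7 FPKM in the other 5, a difference of 4.65 log2. Ferredoxin FD2, which takes electrons from photosystem I, had in its copy BnaAnng04290D 131 FPKM in the peripheral endosperm, against 36 FPKM in the micropylar endosperm, 31 FPKM in the outer seed coat and 0 to 12 FPKM in the other 4, a difference of 3.76 log2.

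Chlorophyll synthesis genes counted higher for 40 of 46 compared copies and lower for 0, with a median of 1.87 log2, and each of the 13 loci had a copy counted higher. CHLI1, a subunit of magnesium chelatase, had in BnaA01g09270D 52 FPKM in the peripheral endosperm and 1 to 8 FPKM in the 6 other compartments, a difference of 3.41 log2. PORB, the light-dependent protochlorophyllide reductase, had in BnaA01g16440D 124 FPKM in the peripheral endosperm, against 57 FPKM in the outer seed coat and 5 to 27 FPKM in the other 5, a difference of 2.95 log2. Regulators of greening were less uniform: 15 of 22 compared copies counted higher and 1 lower, with a median of 1.64 log2, and 17 copies did not pass the filter. GLK1, a transcription factor of chloroplast development, had 10 FPKM in the peripheral endosperm and 14 FPKM in the chalazal endosperm in its copy BnaA07g00410D, and was listed at 0 in the other 5. HY5, a bZIP factor of light signalling, had in BnaA10g21200D 20 FPKM in the peripheral endosperm, against 49 FPKM in the chalazal endosperm, 22 FPKM in the chalazal proliferating tissue and at most 5 FPKM in the other 4. None of the 22 copies lay 2-fold above every other compartment.

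Starch genes did not share this direction. Of 51 compared copies 2 counted higher (1 to 6 over the scalings) and 18 lower (12 to 21), with a median of -0.73 log2, and the inner seed coat was the highest compartment for 19 of them. Without the inner seed coat 4 copies counted higher and 13 lower, and the median was -0.25 log2. The list summed to 234 FPKM in the peripheral endosperm, against 325, 620, 138, 475, 1179 and 811 FPKM in the embryo proper, micropylar endosperm, chalazal endosperm, chalazal proliferating tissue, inner seed coat and outer seed coat. GBSS1, the granule-bound starch synthase, had in BnaC05g28330D 10 FPKM in the peripheral endosperm, against 5 FPKM in the chalazal endosperm and 30 to 208 FPKM in the other 5, a difference of -2.54 log2. APL3, a large subunit of ADP-glucose pyrophosphorylase, had in BnaA06g40730D 0 FPKM in both the peripheral and the chalazal endosperm and 2 to 49 FPKM in the other 5. GWD1, which starts starch breakdown, had copies in both directions: BnaA08g25580D was listed at 0 in the peripheral endosperm against 99 FPKM in the inner seed coat, and BnaAnng25950D had 20 FPKM in the peripheral endosperm against 1 FPKM there.

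Fatty acid synthesis, another plastid pathway, had 10 of 81 copies counted higher, a share near that of all genes, and 3 lower, with a median of 0.01 log2, and the embryo proper was the highest compartment for 42 of them. This balance moved with the processing, to 20 higher and 2 lower with a common median, 6 and 6 with a common sum, and 6 and 10 without the chalazal proliferating tissue. LTA2, a subunit of plastid pyruvate dehydrogenase, had in BnaC09g21610D 38 FPKM in the peripheral endosperm, against 14 FPKM in the chalazal endosperm and no more than 10 FPKM in the other 5, a difference of 2.79 log2.

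Regulators of early endosperm were among the clearest groups. Their lists overlap with the endosperm markers used above to check the label (AGL62, MINI3, FIS2, MEA, PHE1 and ZOU), so they are not separate support for it. Type I MADS box genes counted higher for 33 of 41 compared copies and lower for 0, with a median of 4.25 log2, and a further 19 copies did not pass the filter. They summed to 3151 FPKM in the peripheral endosperm, against 14, 174, 4739, 13, 54 and 15 FPKM in the embryo proper, micropylar endosperm, chalazal endosperm, chalazal proliferating tissue, inner seed coat and outer seed coat. The peripheral and chalazal columns were therefore high and the micropylar column far below both. The peripheral endosperm was the highest compartment for 22 copies and the chalazal endosperm for 13.

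AGL62 summed over its 11 compared copies to 1096 FPKM in the peripheral endosperm and 1337 FPKM in the chalazal endosperm, against 24 FPKM in the micropylar endosperm, 19 FPKM in the inner seed coat and 2 to 3 FPKM in the other 3. Behind these similar sums stood different copies. Of the 10 copies counted higher, 6 lay at least 2-fold above every other compartment and 4 were higher in the chalazal endosperm. BnaA02g06300D, on chromosome A02 at 3016590 to 3017914, had 181 FPKM in the peripheral endosperm, against 6 FPKM in the chalazal endosperm, 4 FPKM in the inner seed coat and 0 in the other 4, a difference of 6.65 log2. Its neighbour BnaA02g06310D, at 3023385 to 3024467, had 223 FPKM in the peripheral endosperm, against 24 FPKM in the micropylar endosperm, 13 FPKM in the chalazal endosperm and no more than 4 FPKM in the other 4, a difference of 6.01 log2. BnaC04g15630D had the opposite order of the endosperm regions, with 76 FPKM in the peripheral endosperm and 350 FPKM in the chalazal endosperm.

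**Figure D3:**
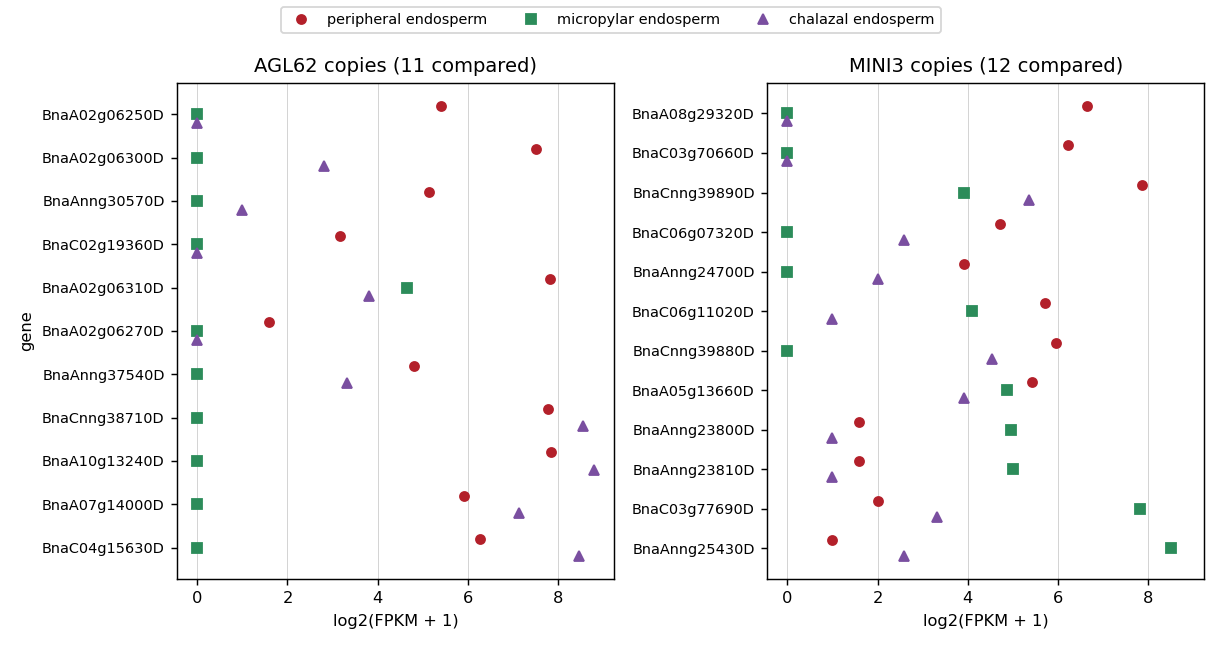
FPKM of single copies of AGL62 and MINI3 in the peripheral, micropylar and chalazal endosperm (horizontal axis, log2(FPKM + 1); each point is 1 copy in 1 combined column). Some AGL62 copies are high in the peripheral endosperm (BnaA02g06300D, 181 against 6 FPKM in the chalazal endosperm) and others in the chalazal endosperm (BnaC04g15630D, 76 against 350 FPKM); MINI3 copies divide between the peripheral and the micropylar endosperm.

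Other members of the family showed the same division among copies. PHE2, close in sequence to PHE1, had in BnaC07g28670D 124 FPKM in the peripheral endosperm, against 22 FPKM in the micropylar endosperm, 6 FPKM in the chalazal endosperm and no more than 1 FPKM in the other 4. PHE1, a paternally expressed imprinted gene in Arabidopsis, had in BnaA02g31770D 62 FPKM in the peripheral endosperm and 232 FPKM in the chalazal endosperm. AGL35 had 311 FPKM in the peripheral endosperm and 440 FPKM in the chalazal endosperm in BnaC07g28640D, but 14 and 1107 FPKM in BnaA02g31510D. AGL80, a factor of the central cell in Arabidopsis, had in BnaA05g31430D 48 FPKM in the peripheral endosperm, against 9 FPKM in the chalazal endosperm and no more than 2 FPKM in the other 5.

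The endosperm growth pathway, in which the WRKY factor MINI3 acts with IKU1 and the receptor kinase IKU2 in Arabidopsis, counted higher for 14 of 26 compared copies and lower for 1, with a median of 2.70 log2, or higher for 8 copies with a filter of 5 FPKM in 2 columns. No copy of IKU2 was compared, since both were listed at 0 in all columns. MINI3 summed over 12 copies to 605 FPKM in the peripheral endosperm, against 10, 704, 101, 0, 9 and 0 FPKM in the embryo proper, micropylar endosperm, chalazal endosperm, chalazal proliferating tissue, inner seed coat and outer seed coat. The peripheral and micropylar sums were close, again with different copies behind them. BnaA08g29320D had 99 FPKM in the peripheral endosperm and 0 to 2 FPKM in the 6 other compartments, a difference of 6.12 log2. BnaCnng39890D had 231 FPKM in the peripheral endosperm, against 40 FPKM in the chalazal endosperm, 14 FPKM in the micropylar endosperm and at most 3 FPKM in the other 4, a difference of 5.98 log2. In contrast BnaAnng25430D had 1 FPKM in the peripheral endosperm and 360 FPKM in the micropylar endosperm, and BnaC03g77690D had 3 and 225 FPKM.

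Of the other genes of the pathway, CKX2 (2 of 4 copies), TFL1 (2 of 2) and IKU1 (2 of 3) had copies counted higher. IKU1 had at most 8 FPKM in the peripheral endosperm. ICE1 (0 of 3), SHB1 (0 of 1) and ZOU (0 of 1) had no copy counted higher. CKX2, a cytokinin oxidase downstream of this pathway in Arabidopsis, had in BnaA09g52930D 104 FPKM in the peripheral endosperm, against 35 FPKM in the micropylar endosperm, 10 FPKM in the chalazal endosperm and no more than 1 FPKM in the other 4, while BnaCnng78130D had 51 FPKM in the peripheral endosperm and 82 FPKM in the micropylar endosperm. TFL1, which is made in the chalazal endosperm of Arabidopsis and affects seed size there, had in BnaA10g26300D 43 FPKM in the peripheral endosperm, against 1 FPKM in the chalazal endosperm and 0 FPKM in the other 5, a difference of 5.29 log2. ZOU, a bHLH factor of endosperm breakdown around the embryo, had in BnaCnng26150D 1 FPKM in the peripheral endosperm and 14 FPKM in the micropylar endosperm.

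Polycomb genes counted higher for 13 of 35 compared copies and lower for 4, with a median of 0.77 log2. FIS2, an endosperm subunit, had in BnaC04g09410D 11 FPKM in the peripheral endosperm, 14 FPKM in the micropylar endosperm and 11 FPKM in the chalazal endosperm. MEA, the endosperm histone methyltransferase, had in BnaC08g46050D 20 FPKM in the peripheral endosperm, 10 FPKM in the chalazal endosperm and 0 FPKM in the other 5. MSI1, a histone-binding subunit, divided among its copies. BnaA02g07770D had 50 FPKM in the peripheral endosperm, against 7 FPKM in the chalazal endosperm and no more than 1 FPKM in the other 5, a difference of 5.01 log2, whereas BnaC03g12490D had 5 FPKM in both the peripheral and the chalazal endosperm and 11 to 38 FPKM in the other 5, a difference of -1.54 log2. VRN2 showed the same contrast, with 35 FPKM in the peripheral endosperm, 86 FPKM in the chalazal endosperm and 0 elsewhere for BnaA01g18110D, and 0 FPKM in both these regions and 3 to 19 FPKM in the other 5 for BnaC08g48270D. EMF2, a relative of FIS2 and VRN2, had in BnaA03g13220D 20 FPKM in the peripheral endosperm, 7 FPKM in the chalazal endosperm and 0 FPKM in the other 5.

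Genes imprinted in Arabidopsis endosperm counted higher for 22 of 38 compared copies and lower for 1, with a median of 2.49 log2. The parental origin of the transcripts was not measured. PHE1, AGL36, FIS2 and MEA are in this list and also in the type I MADS box or Polycomb list, so these counts are not separate. PEG2, a paternally expressed gene in Arabidopsis, was the clearest of them: all 7 compared copies lay 2-fold above every other compartment, and together they had 467 FPKM in the peripheral endosperm, against 30 FPKM in the chalazal endosperm, 5 FPKM in the micropylar endosperm, 2 FPKM in the inner seed coat and 0 in the other 3. HDG8, a homeodomain gene, had in BnaA01g34420D 16 FPKM in the peripheral endosperm, 1 FPKM in the chalazal endosperm and 0 FPKM in the other 5. HDG9, of the same family, had in BnaA07g37850D 34 FPKM in the peripheral endosperm and 65 FPKM in the chalazal endosperm.

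DNA methylation genes counted higher for 8 of 32 compared copies and lower for 3 (1 without the embryo proper, 5 without the micropylar or the chalazal endosperm), with a median of 0.24 log2. CMT3, the methyltransferase of CHG sites, summed to 78 FPKM in the peripheral endosperm, against 8 FPKM in the micropylar endosperm, 10 FPKM in the chalazal endosperm and 0 FPKM in the other 4. MET1, which maintains CG methylation, had 2 copies counted in each direction, with 17 and 2 FPKM in the peripheral endosperm for BnaC04g35500D and BnaA09g42250D, against 1 and 32 FPKM in the embryo proper. VIM1, a partner of MET1, had in BnaA09g41060D 79 FPKM in the peripheral endosperm, 197 FPKM in the chalazal endosperm and 39 FPKM in the micropylar endosperm, with at most 5 FPKM in the other 4.

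DNA demethylation had 4 of 6 compared copies lower and 0 higher, and the RNA-directed pathway also had 0 higher (1 with a common median). The 2 compared copies of the demethylase ROS1 were listed at 0 in both the peripheral and the chalazal endosperm, and BnaC04g08810D had 6 to 26 FPKM in the other 5. DME, the demethylase that sets imprints in the central cell of Arabidopsis, had in BnaA10g25630D 3 FPKM in the peripheral endosperm, against 42 FPKM in the chalazal endosperm, 38 FPKM in the micropylar endosperm and 2 to 8 FPKM in the other 4. In the RNA-directed list 9 of 26 copies counted lower, with a median of -0.78 log2. Without the chalazal proliferating tissue 6 counted lower and the median was -0.12 log2, and against the median of the 6 others in place of their mean it was 0. AGO4, the Argonaute protein of this pathway, counted lower in all 4 compared copies, and BnaC04g38560D had 3 FPKM in the peripheral endosperm, against 249, 32, 10, 74, 31 and 53 FPKM in the embryo proper, micropylar endosperm, chalazal endosperm, chalazal proliferating tissue, inner seed coat and outer seed coat.

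Cell cycle genes differed between lists, and between the loci of the mitosis list. Mitosis genes counted higher for 23 of 61 compared copies and lower for 4 (1 without the embryo proper), with a median of 0.79 log2, although the embryo proper was the highest compartment for 37 of them. CYCB1;2, a mitotic cyclin, had in BnaC03g02420D 42 FPKM in the peripheral endosperm, against 53 FPKM in the embryo proper, 9 FPKM in the outer seed coat and at most 1 FPKM in the other 4, a difference of 3.41 log2. CDKB2;2, a mitotic cyclin-dependent kinase, had in BnaC07g15060D 100 FPKM in the peripheral endosperm, against 71 FPKM in the embryo proper and 0 to 19 FPKM in the other 5, a difference of 3.27 log2. By locus, 10 of 16 in the mitosis list had a copy counted higher and 3 had a copy counted lower. Those 3 were the cyclins CYCA2;3 (2 of 3 copies lower), CYCB2;1 (1 of 4) and CYCB2;2 (1 of 2), each with 0 copies higher. CYCA1;1 also had 0 of 5 copies higher. Replication genes seldom passed the rule of size in either direction, with 1 of 39 copies higher and 2 lower (3 and 0 without the embryo proper), and a median of -0.13 log2 that turned to 0.25 with a common median.

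Cytokinesis genes counted higher for 1 of 41 compared copies and lower for 9, with a median of -0.17 log2 that turned to 0.07 with a common median. The embryo proper was the highest compartment for 20 of the 41 copies, and without it 6 counted lower. The number lower was 5 against the median of the 6 others and 11 with a common sum. KNOLLE, the syntaxin of the cell plate, summed over its 4 copies to 18 FPKM in the peripheral endosperm, against 220 FPKM in the embryo proper, 58 FPKM in the outer seed coat, 3 FPKM each in inner seed coat and chalazal proliferating tissue, and 0 in the micropylar and chalazal endosperm. The peripheral endosperm thus had a low level where the other endosperm regions were listed at 0. Endocycle genes had 0 of 31 copies higher and 5 lower (16.1%, against 11.4% of all compared genes), with a median of 0.11 log2. No copy exceeded 4 FPKM in the peripheral endosperm, below the floor of 5 FPKM, so none could count higher. Without the chalazal endosperm 8 counted lower, and 3 without the chalazal proliferating tissue or the inner seed coat. The list includes CCS52A1, which drives entry into the endocycle, with 1 FPKM in the peripheral endosperm for BnaCnng71150D, against 36 FPKM in the chalazal endosperm and 0 to 45 FPKM in the other 5.

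Cell wall polysaccharide synthases counted lower for 14 of 27 compared copies and higher for 4, with a median of -1.18 log2. All 4 compared copies each of CESA1 and CESA3, subunits of the cellulose synthase of primary walls, counted lower. BnaAnng01240D (CESA3) was listed at 0 in the peripheral endosperm, against 16, 35, 2, 15, 58 and 62 FPKM in the embryo proper, micropylar endosperm, chalazal endosperm, chalazal proliferating tissue, inner seed coat and outer seed coat, a difference of -4.45 log2. The 4 copies of CESA1 were all listed at 0 in both the peripheral and the chalazal endosperm, with up to 50 FPKM elsewhere. The peripheral and chalazal endosperm were thus low for these genes and the micropylar endosperm was not.

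Transporters of sugars and amino acids had few copies counted higher, and each compartment had copies listed at 0. Of 41 sugar transport and sucrose cleavage copies 2 (4.88%) counted higher and 6 (14.6%) lower, against 13.7% and 11.4% of all compared genes. The number lower was 3 with a pseudocount of 5 and 10 without the floor of 5 FPKM. In the peripheral endosperm 27 copies were at 0, against 25 in the chalazal endosperm and 17 to 24 in the other 5. The sucrose exporters SWEET10, SWEET11 and SWEET12 were listed at 0 in the peripheral endosperm in all of their 9 compared copies, and had up to 37 FPKM elsewhere. By the rule of size 0 of these copies counted lower. SUC1, a sucrose-proton symporter, had in BnaC03g02450D 31 FPKM in the peripheral endosperm, 53 FPKM in the chalazal endosperm and no more than 1 FPKM in the other 5. Of 26 amino acid transport copies 2 counted higher and 8 lower, and 21 were at 0 in the peripheral endosperm, against 22 in the chalazal endosperm and 11 to 17 in the other 5. AAP8, an amino acid permease of early Arabidopsis seeds, had 2 of 5 compared copies counted higher. Its copy BnaA06g38000D had 61 FPKM in the peripheral endosperm, 40 FPKM in the chalazal endosperm and 9 FPKM in the micropylar endosperm, with at most 1 FPKM in the other 4. In contrast BnaC05g07760D had 16 FPKM in the peripheral endosperm, against 201 FPKM in the chalazal proliferating tissue and 78 FPKM in the inner seed coat. AAP1 BnaA09g14700D was listed at 0 in the peripheral endosperm, against 56 FPKM in the outer seed coat, 40 FPKM in the inner seed coat and 1 to 32 FPKM in the other 4.

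Hormone lists were small. In auxin synthesis and export 3 of 17 compared copies counted higher and 5 lower, or 1 lower without the embryo proper and 2 without the micropylar endosperm. TAR1, a tryptophan aminotransferase-related gene of auxin synthesis, had in BnaA09g31180D 70 FPKM in the peripheral endosperm, 19 FPKM in the chalazal endosperm and 0 FPKM in the other 5, a difference of 5.43 log2. Its neighbour BnaA09g31200D had 120 FPKM in the peripheral endosperm and 128 FPKM in the chalazal endosperm, with at most 3 FPKM in the other 5. PIN4, an auxin efflux carrier, had in BnaA07g30950D 0 FPKM in the peripheral endosperm and 97 FPKM in the embryo proper. In the cytokinin list 2 of 16 copies (12.5%) counted higher and 1 lower, and in the gibberellin list 1 of 9 (11.1%) higher and 0 lower. Both shares higher are near the 13.7% of all compared genes. The 2 cytokinin copies counted higher are the CKX2 copies described above, so they are not separate. In the abscisic acid list 0 of 13 counted higher and 2 (15.4%) lower, against 11.4% of all compared genes (2 and 1 without the micropylar endosperm). CYP707A1, which breaks abscisic acid down, had in BnaC07g35800D 0 FPKM in the peripheral endosperm, against 31 FPKM in the micropylar endosperm and 20 FPKM in the inner seed coat.

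Genes for signals to the embryo and for seed reserves had lower summed levels than in the micropylar endosperm. ESF1.1, a secreted cysteine-rich peptide of the endosperm in Arabidopsis, summed to 430 FPKM in the peripheral endosperm, against 1692 FPKM in the micropylar endosperm, 371 FPKM in the chalazal endosperm and 0 to 14 FPKM in the other 4. ESF1.2 summed over 5 copies to 144 FPKM in the peripheral endosperm, against 990 FPKM in the micropylar endosperm and 2064 FPKM in the chalazal endosperm. Seed reserve genes (2S albumins, cruciferins, oleosins and the oil assembly genes DGAT1 and PDAT1) had 0 of 42 compared copies higher and 7 lower, a count of 0 without the micropylar endosperm and 15 without the inner seed coat or the chalazal proliferating tissue. The micropylar endosperm was the highest compartment for 35 of them. They summed to 108 FPKM in the peripheral endosperm, against 274, 3167, 414, 39, 40 and 89 FPKM in the embryo proper, micropylar endosperm, chalazal endosperm, chalazal proliferating tissue, inner seed coat and outer seed coat.

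**Figure D4:**
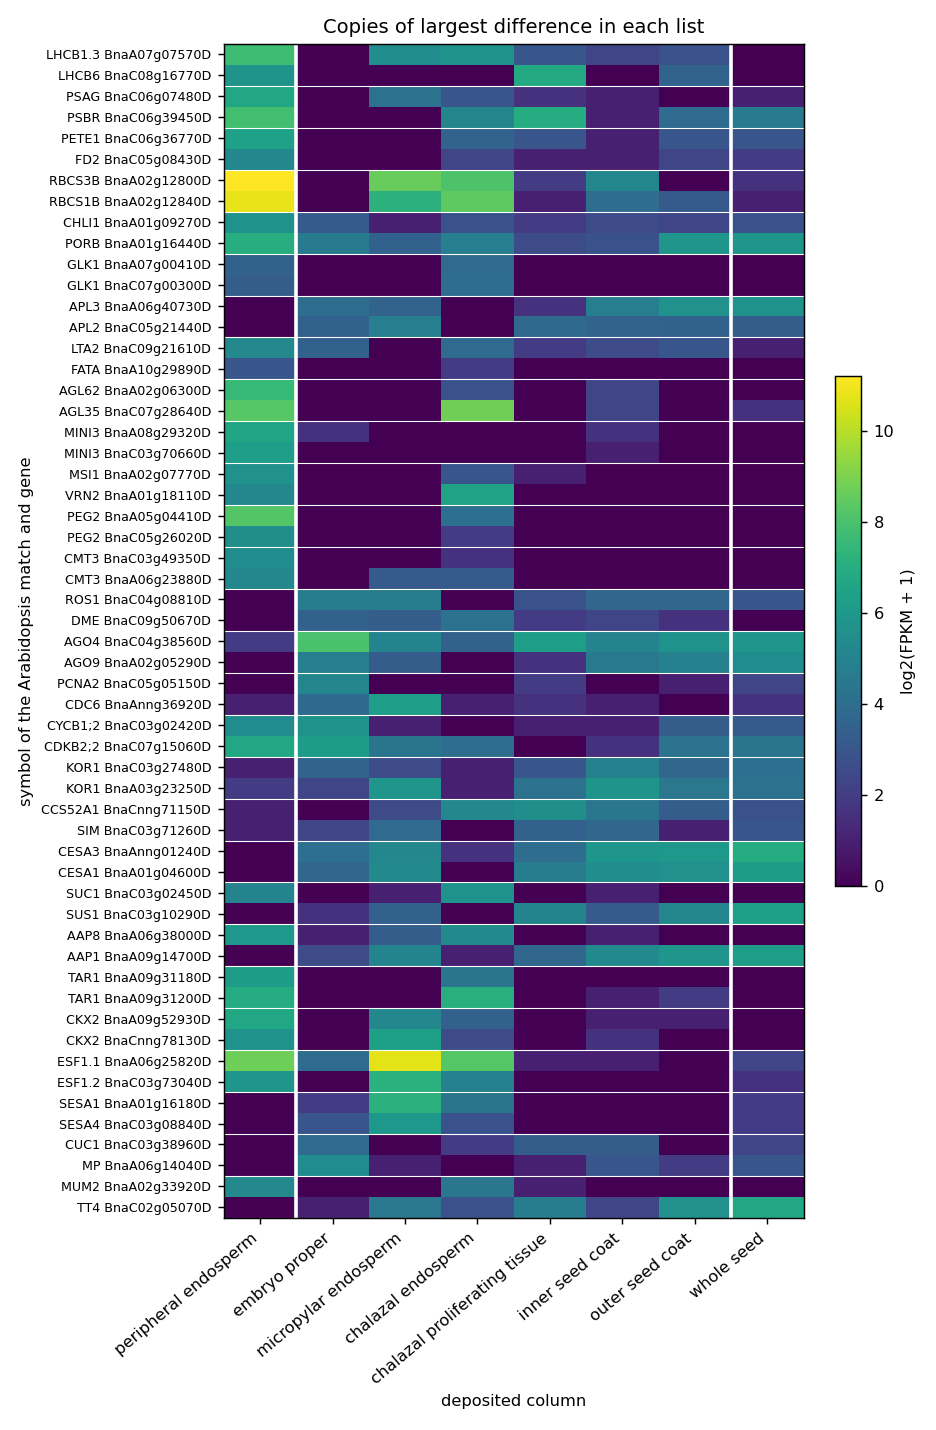
Level of the 2 copies of largest difference of most gene lists in each deposited column, as log2(FPKM + 1) from dark (0) to yellow (high), with the peripheral endosperm at the left and the whole seed at the right; each row is 1 gene copy. The peripheral endosperm is bright together with the chalazal endosperm for BnaA09g31200D (TAR1, 120 and 128 FPKM) and bright over a dark row for BnaA05g04410D (PEG2, 290 FPKM).

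Small secreted proteins gave the largest differences of single genes. The 12 described genes with the largest positive difference and no overlap between the sides, at 8.02 to 8.87 log2, held 5 defensin-like proteins, 2 LCR proteins (low-molecular-weight cysteine-rich), a cystatin, an ECA1-like protein, a GAST1 homolog, a leucine-rich repeat kinase and the glycosyl hydrolase GH9B9. Defensin-like BnaC02g01190D, on chromosome C02 at 501848 to 502424, had 4127 FPKM in the peripheral endosperm, against 0, 34, 48, 2, 44 and 1 FPKM in the embryo proper, micropylar endosperm, chalazal endosperm, chalazal proliferating tissue, inner seed coat and outer seed coat, a difference of 8.87 log2. GH9B9, of the endo-glucanase family, had in BnaA05g04120D 897 FPKM in the peripheral endosperm, against at most 9 FPKM in the 6 other compartments, a difference of 8.20 log2. The leucine-rich repeat kinase BnaC07g21060D had 1274 FPKM in the peripheral endosperm, 524 FPKM in the chalazal endosperm and no more than 1 FPKM in the other 5, a difference of 8.31 log2. All 12 were at 7 FPKM or less in whole seeds, except LCR18 BnaA02g14390D at 16 FPKM, which had 8261 FPKM in the peripheral endosperm.

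Across families the cysteine-rich peptides were shared with the chalazal endosperm. Of 62 compared defensin-like genes 48 counted higher and 2 lower, and 17 lay 2-fold above each other compartment. The family took 3.46% of the summed FPKM of the peripheral endosperm and 3.87% of that of the chalazal endosperm. LCR genes, a group of 114 compared genes chosen after their values were seen, counted higher for 80 and lower for 11, with 28 at 2-fold above each other compartment. They took 9.08% of the summed FPKM in the peripheral endosperm, against 8.89% in the chalazal endosperm, 2.92% in the micropylar endosperm and at most 0.158% in the other 4. The chalazal endosperm was the highest compartment for 55 of the 114, the peripheral endosperm for 31 and the micropylar endosperm for 26. The most abundant gene at 2-fold above each other compartment was LCR18 BnaC02g19310D, with 16264 FPKM in the peripheral endosperm, against 18, 879, 3062, 21, 136 and 68 FPKM in the embryo proper, micropylar endosperm, chalazal endosperm, chalazal proliferating tissue, inner seed coat and outer seed coat, and 14 FPKM in whole seeds.

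Among the 282 descriptions with at least 20 compared genes, the next largest shares counted higher belonged to proteins like the self-incompatibility protein S1 (40 of 63, and 22 at 2-fold above each other compartment), putative membrane lipoproteins (40 of 66), plastid-lipid associated fibrillins (13 of 22), S24/S26 peptidases (15 of 32), cystatins (29 of 62), cysteine-rich DnaJ proteins (9 of 20) and FKBP-like isomerases (13 of 29). The S1-like gene BnaC03g71200D had 304 FPKM in the peripheral endosperm, 3 FPKM in the chalazal endosperm and 0 FPKM in the other 5, a difference of 7.92 log2. The lipoprotein gene BnaA03g06560D had 7490 FPKM in the peripheral endosperm, against 2102 FPKM in the chalazal endosperm, 306 FPKM in the micropylar endosperm, 123 FPKM in the inner seed coat and at most 4 FPKM in the other 3, a difference of 7.94 log2. The FKBP-like gene BnaC06g23510D had 65 FPKM in the peripheral endosperm, against at most 8 FPKM in the 6 other compartments, a difference of 5.02 log2. The fibrillin gene BnaC06g04310D had 21 FPKM in the peripheral endosperm, against at most 5 FPKM in the 6 other compartments, a difference of 3.36 log2. These descriptions were selected by their counts, which are therefore not separate support.

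In the other direction, the 12 described genes with the most negative difference and no overlap, at -6.38 to -4.79 log2, were low in the chalazal endosperm as well, with 1 to 14 FPKM there. MT2A, a metallothionein, had in BnaCnng40400D 0 FPKM in the peripheral endosperm, against 42, 946, 4, 149, 48 and 219 FPKM in the embryo proper, micropylar endosperm, chalazal endosperm, chalazal proliferating tissue, inner seed coat and outer seed coat. The plasma membrane aquaporin PIP1B had in BnaC03g25510D 1 FPKM in the peripheral endosperm and 4 FPKM in the chalazal endosperm, against 10 to 455 FPKM in the other 5. JAZ12, a repressor of jasmonate signalling, had in BnaA10g14660D 0 FPKM in the peripheral endosperm and 3 FPKM in the chalazal endosperm, against 20 to 250 FPKM in the other 5. GLN1;3, a cytosolic glutamine synthetase, had in BnaC05g35690D 2 FPKM in the peripheral endosperm and 4 FPKM in the chalazal endosperm, against 92 to 415 FPKM in the other 5.

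Descriptions with the largest shares counted lower were MADS box proteins with a K-box, the type II branch of the family (36 of 62 lower and 1 higher), DUF581 proteins (31 of 54 lower), wound-responsive proteins (14 of 26), DUF1218 proteins (15 of 32, with 7 higher), octicosapeptide proteins (13 of 28), gibberellin-regulated proteins (9 of 21, with 7 higher), thaumatin-like proteins (12 of 29) and heavy metal transport proteins (31 of 75). The listed type I genes and these K-box genes were thus on opposite sides. Both sets were selected, so they do not stand for whole branches of the family. Of all 162 compared genes with MADS or AGAMOUS-like in their description, 45 counted higher and 49 lower. A K-box gene matching the FLC locus of Arabidopsis, BnaC03g04170D, was listed at 0 in the peripheral endosperm, against 4 FPKM in the chalazal endosperm and 21 to 68 FPKM in the other 5, a difference of -4.79 log2. The gibberellin-regulated gene BnaA09g30450D was listed at 0 in the peripheral endosperm, against 677 FPKM in the outer seed coat, 25 to 52 FPKM in the embryo proper, micropylar endosperm and inner seed coat, and 0 in the other 2.

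Over all genes the chalazal endosperm was the nearest compartment. In summed FPKM the micropylar endosperm was nearer for all of the photosynthesis lists, chlorophyll synthesis and the endosperm growth pathway, among others. Across genes, which are not replicates, log2(FPKM + 1) in the peripheral endosperm correlated with the chalazal endosperm at r = 0.81 and with the other 5 compartments at 0.47 to 0.56. Of the 7423 genes counted higher, 52.6% were at least 2-fold above the chalazal endosperm and 741 were at least 2-fold below it, whereas 77.7% to 81.3% were at least 2-fold above each of the other 5. Of the genes counted lower, 22.1% were at least 2-fold below the chalazal endosperm and 61.4% to 87.0% below each of the others. Leaving the chalazal endosperm out moved the number of genes 2-fold above each remaining compartment to 2875, against 1539 with it.

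The 1539 genes at 2-fold above each other compartment differed by 1.35 to 8.87 log2, with a median of 3.15 log2. The next highest column was that of the chalazal endosperm in 652 cases and of the micropylar endosperm in 177, while 133 genes had the chalazal proliferating tissue next, 125 the inner seed coat, 113 the outer seed coat and 76 the embryo proper, with ties for 263. Of these genes 20 were listed at 0 in all 6 other compartments, a number kept low by the filter, which asks for 1 FPKM in at least 2 columns. Of the group 1309 had a description, spread over 745 descriptions, among them 8 of 62 DUF239 genes, 8 of 129 pectin lyase-like genes, 7 of 12 MINI3 copies and 6 of 11 AGL62 copies. Their median transcript length was 840 bases, against 1253 bases for all compared genes, 12.7% were shorter than 300 bases, against 3.20%, and 9.29% had no Arabidopsis match, against 4.56%. FPKM of short transcripts rest on fewer reads at a given level, and the part of length in these values was not tested.

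Many of these genes were hard to see in intact seeds. Whole seeds had 1 FPKM or more for 845 of the 1539 genes (54.9%), against 89.0% of all 20914 compared genes at 5 FPKM or more in the peripheral endosperm. The filter on low values counts whole seeds among its 8 columns, so it left out genes seen in the peripheral endosperm alone. Without it 1819 genes lay 2-fold above each other compartment, and all those added were below 1 FPKM in whole seeds. The group was also chosen to be low in 6 compartments of the seed, so its lower share is in part built in by that choice. The share grew with the level in the peripheral endosperm but stayed lower at every level: 44.2% in the lowest of 5 bins of level and 73.5% in the highest, against 90.7% and 92.5% for the other genes in those bins. Summed AGL62 copies had 1096 FPKM in the peripheral endosperm and 2 FPKM in whole seeds, and PEG2 had 467 and 0 FPKM.

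**Figure D5:**
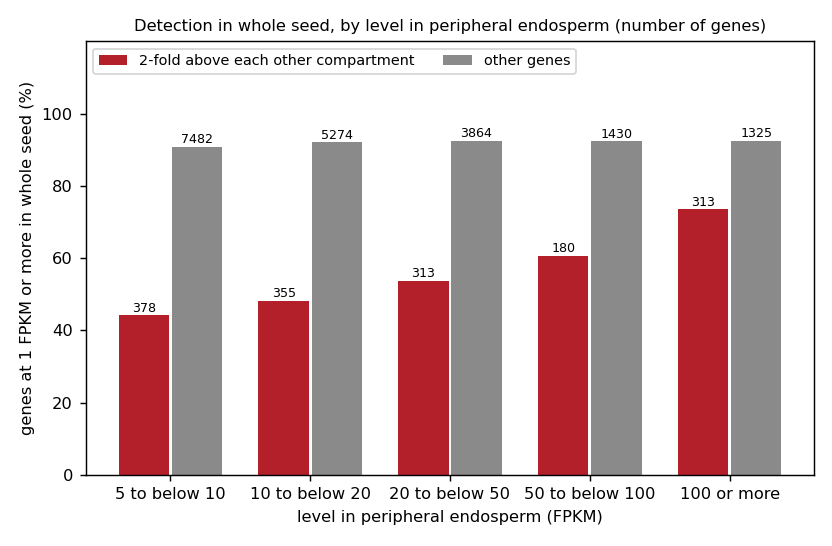
Share of genes at 1 FPKM or more in whole seeds (percent, axis from 0), by level in the peripheral endosperm, for the 1539 genes of the stricter group and for the other genes. In the lowest bin 44.2% of the peripheral genes were found in whole seeds, against 90.7% of the others, and in the highest bin 73.5% against 92.5%. The stricter group was chosen to be low in the other compartments, and the filter on low values counts whole seeds among its columns.

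The A and C copies of a gene were compared for 6357 Arabidopsis loci with exactly 1 compared copy on each subgenome, which are putative homeologs. At least 1 copy counted higher for 1230 pairs, and both did for 474 (38.5%), with 370 where the A copy alone and 386 where the C copy alone passed. At least 1 copy counted lower for 1083 pairs, and both did for 371 (34.3%). The 2 copies counted in opposite directions in 24 pairs, and the differences correlated at r = 0.72 across pairs. A locus of opposite direction was AT2G01620, with 0 FPKM for BnaA02g25820D and 45 FPKM for BnaC02g34060D in the peripheral endosperm. Both copies of LCR22 lay 2-fold above each other compartment, with 10460 FPKM for BnaA01g07580D and 221 FPKM for BnaC01g09250D in the peripheral endosperm.

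Along the chromosomes, 1256 of the 1539 genes had a placed position, and 106 of them (8.44%) had a direct neighbour of the same group, against 2.99% of other genes. Tandem copies such as those of AGL62 on A02 add to this count. One run of 3 such genes on A03, from 24148965 to 24159781, held genes matching different proteins: a UPF0497 protein, acyl carrier protein 4 and magnesium-protoporphyrin IX methyltransferase, an enzyme of chlorophyll synthesis. By chromosome the group made up 1.24% (A08) to 2.16% (A02) of genes.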

How the data were processed

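The authors deposited 1 table with 1 combined column per group, whose values are FPKM rounded to whole numbers and are handled here as a score, per the file headers. No unit is given in the heading for the whole seed, which was read as FPKM. The gene length, of other unit, is the authors' own column in bases. Per the labels' protocols, an Ambion reagent was used for RNA extraction, and the kit was NuGen Ultralow. The submitters' processing notes name Trimmomatic 0.36, HISAT2 and Cufflinks. The genome build, and how the libraries of a group were combined, are not given in the sources used here. Reads per library are unknown, so no counting interval is given. Depth per sample is unknown for the same reason, and 1 further FPKM column matched no sample and was not used.

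The differences were computed as described above, with a pseudocount of 1, for genes at 1 FPKM or more in at least 2 of 8 columns. Of the compared genes 51801 had an Arabidopsis match and 50270 a description. Positions come from the same table, with starts counted from 1. The members and lists were chosen with earlier results of these data known. Tests planned on replicate libraries could not be run on 1 column per group, and the rule of size stands in their place. Named genes are, for each list, up to 4 copies with the largest difference past the rule; the 12 highest and 12 lowest described genes whose sides do not overlap; the 5 most abundant genes; and 2 copies for each of the 8 descriptions of at least 20 genes with the largest share on either side. Genes given to show copies that differ were chosen after their values were seen. The code was checked on simulated data. The tools were pandas 2.3.3, numpy 2.4.6 and matplotlib 3.10.9 under Python 3.11.15.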

Additional observations from a re-analysis of the deposited data

How the results depend on the processing

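No paired analysis was possible because the table holds 1 combined column per group, and for the same reason no replicate could be left out. No difference of at least 1 log2 unit turned its sign, but medians nearer to 0 did for 11 lists, among them fatty acid synthesis, replication, cytokinesis, endocycle, seed reserves and housekeeping. The number of genes counted higher was 4217 with a pseudocount of 5, 11364 with a common median and 3527 at 4-fold, against 7423. The number counted lower was 3523 with a pseudocount of 5, 9561 without the floor of 5 FPKM and 2622 at 4-fold, against 6205. The number 2-fold above each other compartment was 1025 with a pseudocount of 5, 848 with a filter of 5 FPKM in 2 columns, 2569 with a common median, 575 at 4-fold and 2875 without the chalazal endosperm, against 1539. The other alternatives kept these counts within 1.5 times. A pseudocount of 0.1 moved the median of all genes by 0.24 log2. Of 527 list medians under the alternatives 500 moved by less than 1 log2 unit and 27 by more, and of 2708 differences of 170 named genes 2431 and 277 did. Values are whole numbers, so differences of genes under about 5 FPKM are coarse. The counts of embryo markers lower (14, and 1 without the embryo proper) and mitosis genes lower (4 and 1) rest on the embryo proper column. So does the count lower in the list of endosperm signals to the embryo (5 and 2). That list also holds TWS1 and the kinases GSO1 and GSO2. Most of its copies counted lower match TWS1 or GSO2, not the endosperm peptides ESF1.1 and ESF1.2.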

Other observations

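Families of transcription factors were grouped by words in the deposited descriptions that were chosen after the values were seen. Of all compared genes 13.7% counted higher and 11.4% lower. HMG box genes, which encode DNA-bending chromatin proteins, counted higher for 15 of 22 compared genes and lower for 0. The HMG box gene BnaA05g25980D had 224 FPKM in the peripheral endosperm, against 76 FPKM in the chalazal endosperm and at most 3 FPKM in the other 5, a difference of 6.27 log2. C2H2 zinc finger genes counted higher for 32 of 176 and lower for 16, with 13 at 2-fold above each other compartment. NAC genes counted higher for 8 of 130 and lower for 24, MYB genes higher for 17 of 208 and lower for 46, bHLH genes higher for 10 of 199 and lower for 33, and AP2/ERF genes higher for 5 of 105 and lower for 19. WRKY genes counted higher for 11 of 108 (10.2%) and lower for 10 (9.26%). The 11 include 8 copies of MINI3, described above. For bZIP genes 14 of 76 (18.4%) counted higher and 11 (14.5%) lower. Neither of these 2 families leaned clearly in direction.

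Single factors of these families were high in the peripheral endosperm. A gene matching MYB10, BnaA03g32460D, had 111 FPKM in the peripheral endosperm, 24 FPKM in the chalazal endosperm and 0 FPKM in the other 5. The bZIP gene BnaA09g43320D had 64 FPKM in the peripheral endosperm, 1 FPKM in the inner seed coat and 0 in the other 5.

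The table held 593 genes without values for any compartment, of which 274 had 1 FPKM or more in whole seeds, up to 306 FPKM. The 5 most abundant genes of the peripheral endosperm column included 3 matching chloroplast 23S rRNA, at 40710 FPKM for BnaC09g30110D, 23867 FPKM for BnaC09g29230D and 17148 FPKM for BnaA04g06310D, all listed at 0 in whole seeds.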
